A study of Mus musculus with 13 samples.

Results

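In bulk RNA-seq of the mouse brain after cuprizone, 10 genes of iron uptake, storage and export were followed. The members were Trf, Tfrc, Fth1, Ftl1, Slc40a1, Slc11a1, Slc11a2, Hmox1, Ireb2 and Ncoa4. They were chosen by symbol, each symbol had 1 row among the 55401 gene identifiers, and all 10 passed the filter that left 14985 genes to be tested. The samples were 13 libraries, 1 per mouse, from 1 snap-frozen brain hemisphere each, so every value mixes all regions and cell types of that hemisphere. All mice were wild-type C57BL/6J males, 6 to 8 weeks old at the start of the diets by the sample labels, while the study's methods give them as somewhat older. The 5 control (CTL) mice ate the control diet for 6 weeks. The 4 cuprizone (CPZ) mice ate a diet with 0.3% cuprizone, a copper chelator that injures oligodendrocytes, for 4 weeks. The 4 recovery (RCV) mice ate that diet for 4 weeks and the control diet for a further 2 weeks. CPZ mice were therefore killed at 4 weeks and the others at 6 weeks, and that difference in time on study cannot be told apart from the diet.

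Transferrin (Trf) carries ferric iron outside cells and delivers it through the transferrin receptor (Tfrc), after which Slc11a2 moves the iron out of the endosome. Slc11a1 is the related transporter of phagosome membranes in macrophages and microglia. Iron is stored in ferritin shells built of heavy (Fth1) and light (Ftl1) chains, is freed when Ncoa4 takes ferritin to the lysosome, is released from heme by heme oxygenase (Hmox1), and leaves the cell through ferroportin (Slc40a1). In the brain, oligodendrocytes are rich in iron, ferritin and transferrin, and microglia take up iron with the debris they clear.

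Ireb2 encodes iron regulatory protein 2, which binds hairpins called iron-responsive elements, as does the related protein encoded by Aco1. A hairpin in the 5′ UTR lets these proteins hold back translation when iron is scarce, and hairpins in the 3′ UTR of Tfrc protect its message. The sites are printed because control through a 5′ UTR hairpin acts on translation, which a message level does not report. Control through the hairpins of Tfrc acts on the message itself and can enter its level. A search of the annotated UTRs on the transcript's strand for a C, any 5 bases and then the loop CAGTGN, with 5 base pairs closing the stem between them, found 7 sites in 4 members. Each is given 5′ to 3′ as 28 bases of GRCm38, with the loop of 6 bases in capitals.
Fth1, 5′ UTR, chr19:9982732-9982759, plus strand: ttcctgcttcaaCAGTGCttgaacggaa
Ftl1, 5′ UTR, chr7:45459780-45459807, minus strand: gtcttgcttcaaCAGTGTttgaacggaa
Slc40a1, 5′ UTR, chr1:45925466-45925493, minus strand: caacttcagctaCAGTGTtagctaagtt
Tfrc, 3′ UTR, chr16:32631219-32631246, plus strand: aattatcggaagCAGTGCcttccataat
Tfrc, 3′ UTR, chr16:32631598-32631625, plus strand: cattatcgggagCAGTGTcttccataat
Tfrc, 3′ UTR, chr16:32631663-32631690, plus strand: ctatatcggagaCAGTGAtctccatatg
Tfrc, 3′ UTR, chr16:32631710-32631737, plus strand: aattatcgggaaCAGTGTttcccataat
The windows of Fth1 and Ftl1 were identical at 25 of 28 bases, and that of Slc40a1 matched either ferritin window at 13. Such a site was present in the 5′ UTR of 30 of 20062 genes (0.15%) and in the 3′ UTR of 127 of 20848 genes (0.609%). A match in letters is a description of the sequence and not a measured binding site. The search took only this loop with an unbroken stem, so hairpins of another form would be missed. A member without a printed site may therefore still carry an iron-responsive element.

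Libraries held 5422264 to 7486387 estimated counts in CTL, 6743067 to 8197289 in CPZ and 4605100 to 6990717 in RCV. Marker scores, the mean log2-CPM (CPM are counts scaled to a common library size) over a list of marker genes, showed the tissue behind the iron values. The microglia score was 4.32 ± 0.09 (SD, n = 5) in CTL, 6.75 ± 0.52 (n = 4) in CPZ and 5.15 ± 0.17 (n = 4) in RCV, and 15 of its 15 genes rose in CPZ against CTL. The score of mature oligodendrocytes, from 16 genes without Trf, was 6.49 ± 0.34, 5.07 ± 0.32 and 6.55 ± 0.31 in the same order, and 15 of the 16 genes fell in CPZ against CTL. The choroid plexus score spread from 0.78 to 4.70 among the RCV mice and from 3.22 to 5.62 among the others, none of its 10 genes passed the test in any contrast, and a fit with this score as a covariate is named where it ended a call. In bulk tissue, more or fewer cells of a type and more or less RNA per cell cannot be told apart.

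In CPZ against CTL, 3 of the 10 members rose, none fell and 7 did not pass the test. The 3 were Slc11a1, Hmox1 and Ftl1, the vesicle transporter of phagocytes, the heme-degrading enzyme and the ferritin light chain. Of all genes tested, 7.66% rose in this contrast, 2.5% fell and 10.2% changed in either direction. In RCV against CTL, 1 of the 10 members, Slc11a1, rose, where 0.36% of all genes rose, 0.0133% fell and 0.374% changed. In CPZ against RCV, the same 3 members as against CTL were higher and none was lower, where 5.13% of all genes were higher, 1.88% lower and 7.01% different. The tests were edgeR's quasi-likelihood F tests with Benjamini-Hochberg adjustment over 14985 genes and a threshold of 0.05. The median log2 fold change over the 10 members was 0.14, 0.05 and 0.16 in the 3 contrasts, beside -0.02, -0.004 and -0.007 over all genes tested. Both contrasts against CTL share the 5 CTL libraries, and the CPZ and RCV libraries each enter 2 contrasts, so the 3 sets of values are not independent.

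**Figure D1:**
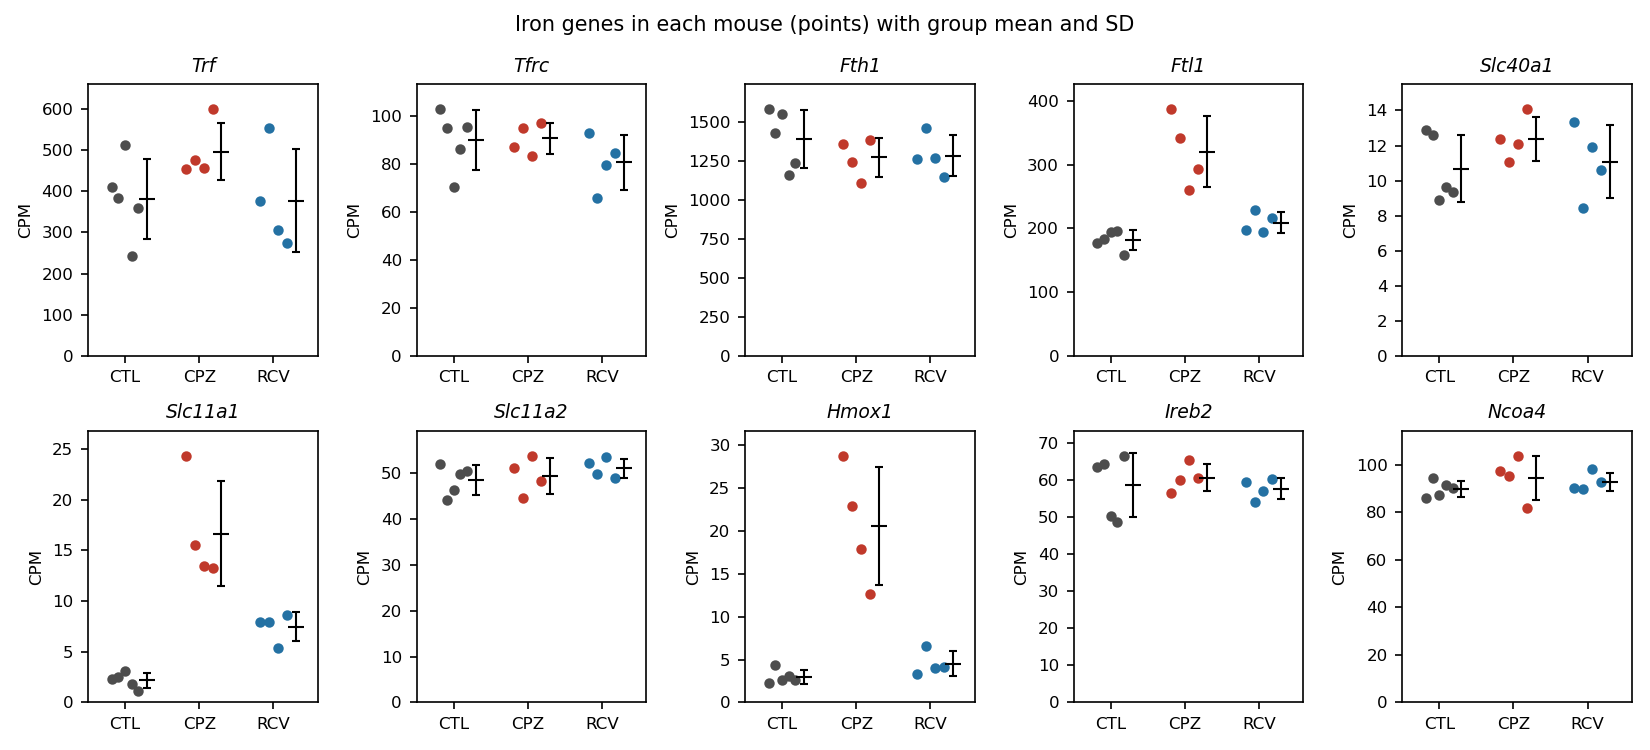
CPM (y axis, from 0) of the 10 members in each of the 13 mice, by group (x axis), with the group mean and SD in black beside the points. The CPZ mice lie above every CTL and RCV mouse in the panels of Ftl1, Slc11a1 and Hmox1, and in the panel of Slc11a1 the RCV mice also lie above every CTL mouse. In the other 7 panels the groups overlap.

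The ferritin light chain rose and the heavy chain did not pass the test. Ftl1 (chr7:45457944-45459884, minus strand) was at 177, 183, 194, 196 and 158 CPM in the CTL mice, at 387, 342, 260 and 292 CPM in the CPZ mice, and at 197, 229, 195 and 216 CPM in the RCV mice. Every CPZ mouse was above every CTL and RCV mouse, and the RCV and CTL ranges overlapped. The log2 fold change of Ftl1 was 0.82 ± 0.10 (SE) in CPZ against CTL, which is 1.76-fold, with an edgeR adjusted p of 4.1e-05. It was 0.62 ± 0.11 in CPZ against RCV (edgeR adjusted p = 0.0023) and 0.20 ± 0.10 in RCV against CTL (edgeR adjusted p = 0.843).

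Fth1 (chr19:9980598-9985098, plus strand) was at 1580.5, 1427, 1550.4, 1157 and 1234 CPM in the CTL mice, at 1355, 1240.3, 1108 and 1382 CPM in the CPZ mice, and at 1263, 1457, 1266 and 1143 CPM in the RCV mice. These ranges overlapped between all groups. The log2 fold changes of Fth1 were -0.13 ± 0.10 in CPZ against CTL (edgeR adjusted p = 0.527), -0.12 ± 0.10 in RCV against CTL (0.976) and -0.01 ± 0.11 in CPZ against RCV (0.972).

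Compared per length, in TPM (transcript abundance scaled by length and depth), the light chain made up 11.2% ± 1.59 of the ferritin message in CTL, 19.3% ± 2.16 in CPZ and 13.4% ± 1.15 in RCV. The light to heavy ratio was 0.107 to 0.162 in the CTL mice, 0.201 to 0.272 in the CPZ mice and 0.145 to 0.178 in the RCV mice, so that the CPZ mice stood apart and the other groups overlapped. The sum of both messages was 4180 ± 441 TPM in CTL, 4170 ± 399.7 TPM in CPZ and 3955 ± 359 TPM in RCV, with overlapping mice. The shift in the ratio was therefore measured within a total that differed by less than the spread between mice. Reads of ferritin can be shared with processed copies: the 3 annotated light chain copies held 0.91% to 1.96% of the Ftl1 count in a library and the 11 heavy chain copies at most 0.0376% of the Fth1 count. The exons of Ftl1 also overlap Gm22133 and, on the other strand, Gm10252, which held at most 3.09 and 6 counts in a library. The ratio and the sum were chosen after the values of the members were seen and were not tested.

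**Figure D2:**
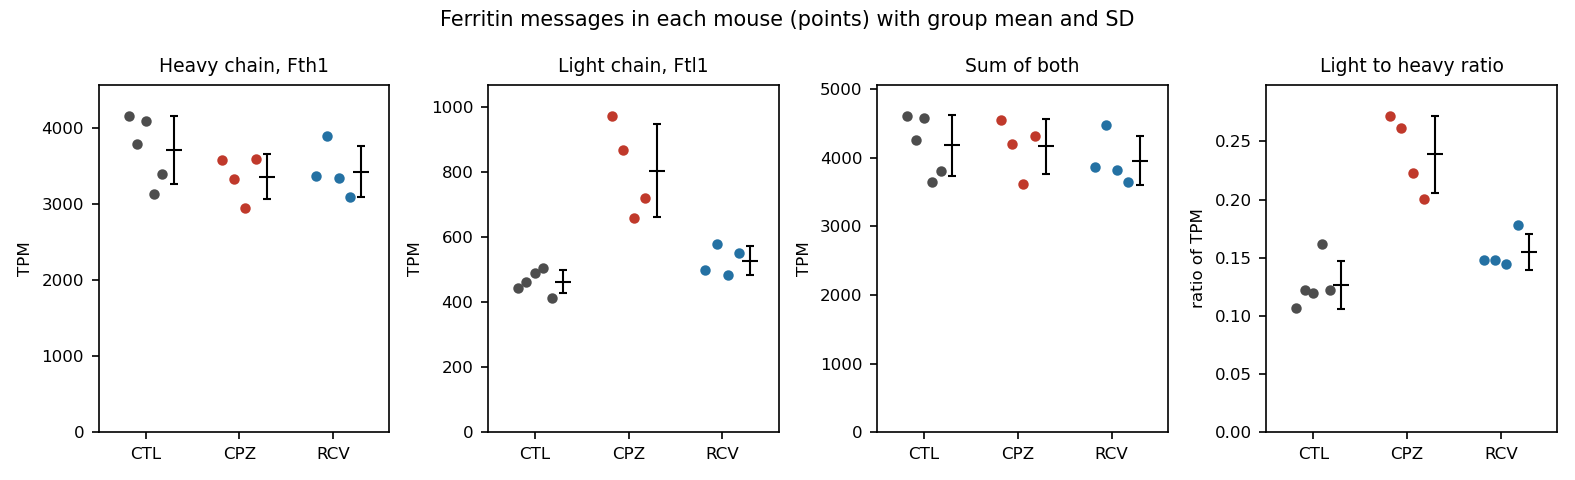
Ferritin messages in each mouse, in TPM for the heavy chain, the light chain and their sum, and as the ratio of light to heavy chain TPM (y axes from 0), by group, with the group mean and SD in black. The ratio is 0.201 to 0.272 in the CPZ mice and at most 0.178 in the other mice, and the sums overlap.

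The phagosomal transporter Slc11a1 rose in CPZ against CTL by a fold change close to that of Hmox1, and was the only member called above CTL in RCV. Slc11a1 (chr1:74375195-74386062, plus strand) was low in CTL, at 17, 17, 20, 12 and 6 estimated counts. It reached 169, 128, 97 and 103 counts in the CPZ mice and 54, 49, 28 and 40 counts in the RCV mice. On the CPM scale the groups were at 2.17 ± 0.75 (n = 5), 16.7 ± 5.22 (n = 4) and 7.48 ± 1.44 (n = 4). The CTL mice lay below all RCV mice and the RCV mice below all CPZ mice. Over all genes, 8.25% had every CPZ mouse above every CTL mouse (4.86% below and 13.1% either), 2.21% every RCV mouse above every CTL mouse (0.687% below and 2.9% either) and 8.26% every CPZ mouse above every RCV mouse (4.93% below and 13.2% either).

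The log2 fold change of Slc11a1 was 2.91 ± 0.25 in CPZ against CTL (7.49-fold, edgeR adjusted p = 1.2e-06), 1.76 ± 0.27 in RCV against CTL (3.38-fold, edgeR adjusted p = 0.0079) and 1.15 ± 0.23 in CPZ against RCV (2.22-fold, edgeR adjusted p = 0.0054). The TPM of Slc11a1 was 2.53 to 6.46 in CTL, 20.2 to 35.9 in CPZ and 8.05 to 24.3 in RCV, so that CPZ and RCV overlapped on this scale. The difference between CPZ and RCV lost its call with limma on the TPM values (adjusted p 0.333 to 0.479 in 3 fits) and with the choroid plexus score as a covariate (log2 fold change 0.91, edgeR adjusted p = 0.095). The rise in RCV lost its call with limma-voom (1.78, adjusted p = 0.0806) and with limma on unfiltered log2(TPM + 1) (1.71, adjusted p = 0.08), and Slc11a1 was not tested where at least 10 counts were required in every library.

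Its relative Slc11a2 (chr15:100387898-100425072, minus strand), which serves the transferrin cycle, was at 44.3 to 52.1 CPM in CTL, 44.6 to 53.8 CPM in CPZ and 49.0 to 53.5 CPM in RCV. The log2 fold changes of Slc11a2 lay between -0.05 and 0.07 with SE of 0.07, and none passed the test (edgeR adjusted p 0.8 to 0.977). The 2 transporters of one family thus differed in level and in change: in CTL, Slc11a2 had 31.1 ± 5.25 TPM and Slc11a1 4.09 ± 1.62 TPM. Slc11a2 exons overlap Gm5475 on the other strand, which held at most 1 count in a library.

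Hmox1 (chr8:75093621-75100589, plus strand), which opens the heme ring and frees its iron, rose in CPZ and was not called in RCV. Its estimated counts were 17, 29, 17, 20 and 14 in the CTL mice, 200, 189, 129 and 98 in the CPZ mice, and 23, 41, 21 and 19 in the RCV mice. Every CPZ mouse was above all others, and the RCV mice overlapped with CTL. In CPM, Hmox1 was at 2.98 ± 0.81 in CTL, 20.6 ± 6.92 in CPZ and 4.54 ± 1.44 in RCV. Its log2 fold change was 2.78 ± 0.26 in CPZ against CTL (6.85-fold, edgeR adjusted p = 3.2e-06), 0.61 ± 0.31 in RCV against CTL (edgeR adjusted p = 0.841) and 2.17 ± 0.27 in CPZ against RCV (4.5-fold, edgeR adjusted p = 0.00031). The constitutive heme oxygenase Hmox2 had a log2 fold change of -0.14 ± 0.07 in CPZ against CTL (edgeR adjusted p = 0.221). The biliverdin reductases Blvra and Blvrb, which act on the product of heme oxygenase, were at 0.07 ± 0.12 and 0.11 ± 0.17 and did not pass the test either.

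**Figure D3:**
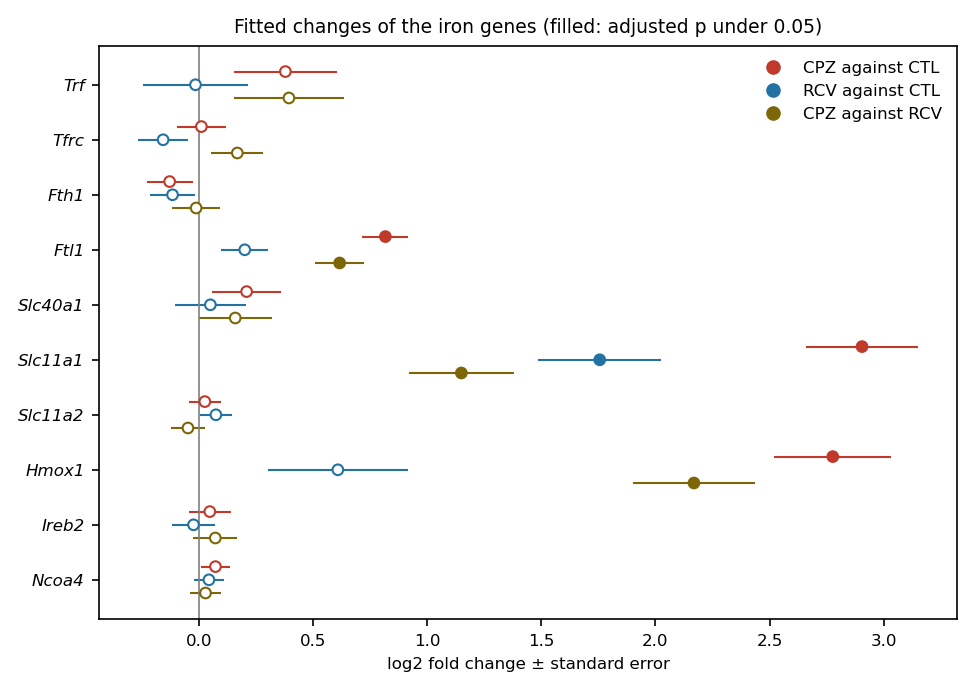
Log2 fold change (x axis) with its standard error (bars) of the 10 members in 3 contrasts, filled where the edgeR adjusted p was under 0.05. Slc11a1 is filled in all 3 contrasts, and Ftl1 and Hmox1 in both contrasts of CPZ.

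The extracellular carrier Trf and its receptor Tfrc did not pass the test in any contrast. Trf (chr9:103204001-103230444, minus strand) was at 409, 382, 513, 243 and 360.0 CPM in the CTL mice, at 454, 475, 456 and 599 CPM in the CPZ mice, and at 376, 553, 304 and 274 CPM in the RCV mice. The groups overlapped, and the CTL mice and the RCV mice each spread more widely than the group means differed. The log2 fold changes of Trf were 0.38 ± 0.23 in CPZ against CTL (edgeR adjusted p = 0.383), -0.02 ± 0.23 in RCV against CTL (0.999) and 0.39 ± 0.24 in CPZ against RCV (0.427). With the choroid plexus score as a covariate, the last was 0.08 ± 0.23 (edgeR adjusted p = 0.943), and without RCV replicate 2 it was 0.64 ± 0.22 (edgeR adjusted p = 0.112). Trf exons overlap those of Gm20425 on the same strand, which was not analysed here.

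Tfrc (chr16:32608920-32632794, plus strand) was at 70.4 to 103 CPM in CTL, 83.2 to 97.1 CPM in CPZ and 65.6 to 92.9 CPM in RCV. Its log2 fold changes were 0.01 ± 0.11 in CPZ against CTL (edgeR adjusted p = 0.974), -0.16 ± 0.11 in RCV against CTL (0.953) and 0.17 ± 0.11 in CPZ against RCV (0.478). The message with the 4 hairpins printed above thus had overlapping ranges in all groups on the CPM scale. In TPM it was at 47.9 ± 3.59 in CTL, 50.2 ± 14.5 in CPZ and 38.8 ± 7.29 in RCV. The RCV mice, at 29.2 to 45.7 TPM, mostly lay below the CTL mice, at 43.1 to 51.3 TPM, although the ranges overlapped. Under settings other than leaving out 1 library, its log2 fold change in RCV against CTL ran from -0.32 to -0.13 and was not called.

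The remaining members act in export, sensing and ferritin release. The exporter Slc40a1 (chr1:45908068-45926523, minus strand) was at 8.91 to 12.9 CPM in CTL, 11.1 to 14.1 CPM in CPZ and 8.42 to 13.3 CPM in RCV, with a log2 fold change of 0.21 ± 0.15 in CPZ against CTL (edgeR adjusted p = 0.483). Its TPM did not follow its counts: CPZ replicate 3 had 87 counts and 17.2 TPM, while CPZ replicate 1 had 86 counts and 7.68 TPM. The sensor Ireb2 (chr9:54863789-54912530, plus strand) was at 48.6 to 66.6 CPM in CTL, 56.5 to 65.3 CPM in CPZ and 53.9 to 60.3 CPM in RCV, with a log2 fold change of 0.05 ± 0.09 in CPZ against CTL (edgeR adjusted p = 0.834).

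The ferritin receptor Ncoa4 (chr14:32159865-32179855, plus strand) was at 86.0 to 94.5 CPM in CTL, 81.7 to 104 CPM in CPZ and 89.9 to 98.2 CPM in RCV, with a log2 fold change of 0.07 ± 0.07 in CPZ against CTL (edgeR adjusted p = 0.598). The counts of Ncoa4 were not whole in 12 of the 13 libraries, and those of Ftl1 in all 13. None of these 3 members passed the test in the other contrasts. Precision differed between the members that were not called: the SE of a log2 fold change between CPZ and CTL ran from 0.07 for Ncoa4 and Slc11a2 to 0.23 for Trf.

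Per length, Fth1 was the most abundant member in each group, at 3716 ± 444 TPM in CTL. Next in CTL came Trf at 565 ± 149 TPM and Ftl1 at 464 ± 36.4 TPM, whose mice overlapped, then Ncoa4 at 73.2 ± 3.64, Tfrc at 47.9 ± 3.59, Slc11a2 at 31.1 ± 5.25 and Ireb2 at 21.3 ± 3.15 TPM, each apart from its neighbours. Slc40a1 at 6.79 ± 1.15, Hmox1 at 4.29 ± 1.16 and Slc11a1 at 4.09 ± 1.62 TPM closed the order and overlapped. In CPZ the order changed in 2 places. Ftl1 at 805 ± 143 TPM stood before Trf at 726 ± 90.5 TPM, although their mice overlapped, and Hmox1 at 29.3 ± 9.87 and Slc11a1 at 24.9 ± 7.35 TPM stood between Slc11a2 at 33.0 ± 3.92 TPM and Ireb2, at 21.1 to 23.7 TPM, with overlapping neighbours. In RCV, Hmox1 was last at 6.45 ± 2.04 TPM, and Slc11a1 at 16.1 ± 6.77 TPM overlapped Ireb2 at 21.8 ± 2.38 TPM.

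The RCV mice were placed on a log2-CPM scale between the CTL mean, at 0, and the CPZ mean, at 1. Slc11a1 lay at 0.606 ± 0.105 (n = 4), from 0.452 to 0.687. Ftl1 lay at 0.251 ± 0.138, from 0.129 to 0.418, and Hmox1 at 0.209 ± 0.149, from 0.0735 to 0.422. All 4 RCV mice had a higher position for Slc11a1 than for Ftl1 or Hmox1. The microglia score lay at 0.342 ± 0.072 and the astrocyte score at 0.691 ± 0.202 on the same scale. These positions were not tested.

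Trf is a gene of mature oligodendrocytes, and its level was set beside theirs in each mouse. The log2-CPM of Trf minus the score of mature oligodendrocytes was 2.00 to 2.18 in the CTL mice, 3.69 to 3.98 in the CPZ mice and 1.83 to 2.14 in the RCV mice. The mean was 3.88 ± 0.13 in CPZ against 2.05 ± 0.07 in CTL, while 15 of the 16 markers had fallen and Trf had not passed the test. The separation of the CPZ mice is not particular to Trf: the score itself was lower in CPZ, and the difference was higher in every CPZ mouse than in every CTL mouse for each of the 10 members. For Tfrc, for example, it was -0.68 to 0.51 in CTL and 1.06 to 1.66 in CPZ. Within groups, Trf and the score moved together over the 13 mice (r = 0.949 after centring on the group means), and so did Fth1 and the score (r = 0.824). The r of Trf was also 0.621 with the choroid plexus score and -0.800 with the border macrophage score, which rests on 2 genes. The r of Fth1 was also -0.859 with the border macrophage score, 0.591 with the red blood cell score and 0.562 with the endothelial score. The part of each cell type in the Trf and Fth1 levels was not tested. For Fth1 the same difference was 3.78 to 4.26 in CTL, 4.89 to 5.48 in CPZ and 3.54 to 3.91 in RCV.

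The 3 called members were set beside the microglia score in the same way. Ftl1 minus the score was 3.02 to 3.37 in CTL, 1.31 to 1.90 in CPZ and 2.47 to 2.69 in RCV, so the microglia markers had risen by more than Ftl1. For Slc11a1 it was -3.79 to -2.48 in CTL, -3.12 to -2.34 in CPZ and -2.41 to -2.08 in RCV, and for Hmox1 -2.91 to -2.25, -2.83 to -1.94 and -3.24 to -2.50. The CTL and CPZ mice overlapped in this difference for Slc11a1 and for Hmox1. The RCV mice were above all CTL mice for Slc11a1 and overlapped the CTL mice for Hmox1. The 6 markers of blood monocytes and neutrophils were too low to be tested, with summed counts of 3 to 75 in CTL, 1 to 11 in CPZ and 5 to 76 in RCV. Of 7 markers of border macrophages, 2 could be tested and neither was called, with summed counts of 30 to 61 in CTL, 50 to 79 in CPZ and 30 to 53 in RCV. Within groups, after centring on the group means, the r of Slc11a1 was 0.517 with the microglia score and 0.78 with the red blood cell score. The r of Hmox1 was 0.633 and 0.571 with the same scores, and -0.624 with the neuron score. Ftl1 had its highest r with the microglia score, 0.846, and a slightly lower r with the red blood cell score. The part of microglia or other cells in these values was not tested.

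**Figure D4:**
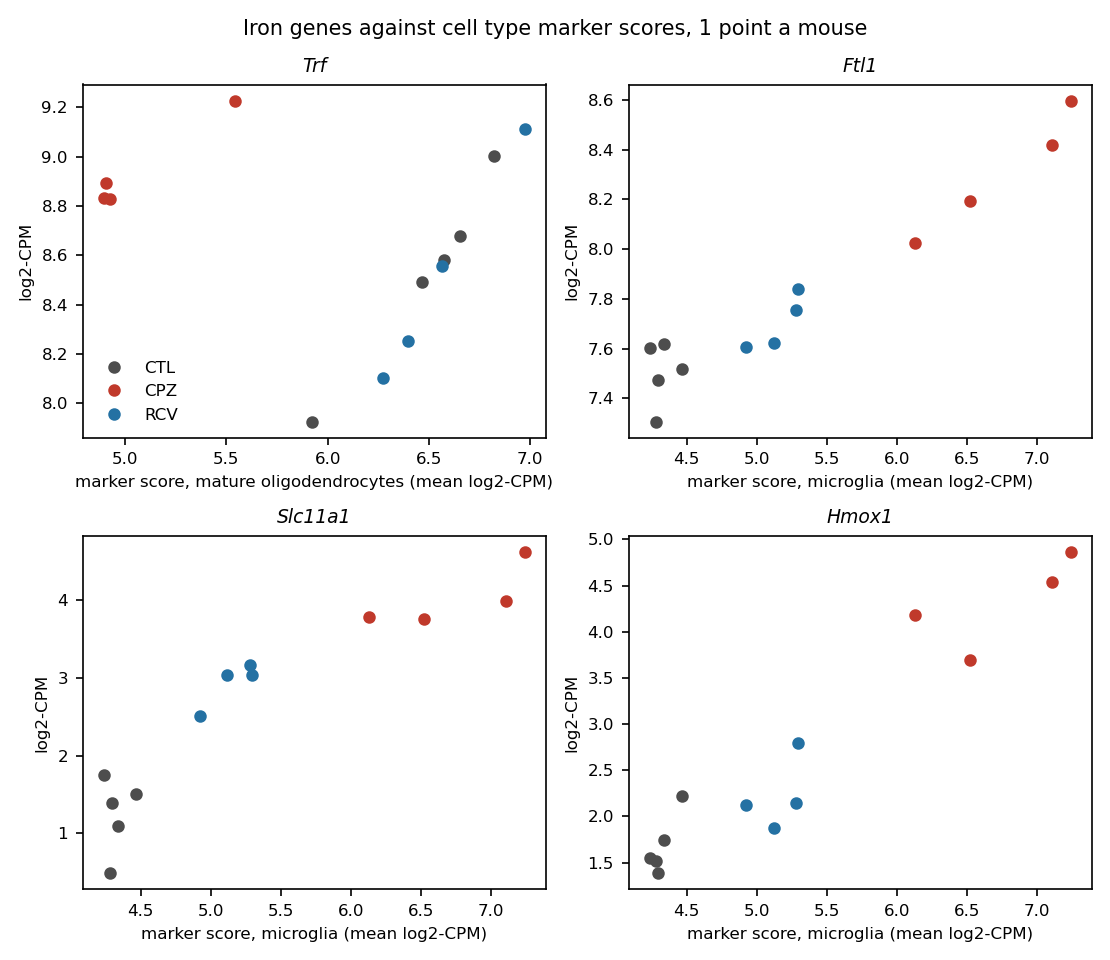
Log2-CPM of Trf against the marker score of mature oligodendrocytes, and of Ftl1, Slc11a1 and Hmox1 against the microglia score, with 1 point per mouse coloured by group. In the Trf panel the 4 CPZ mice lie left of the others and higher than most of them, with overlapping heights. Trf is at 8.83 to 9.23 in CPZ, 7.93 to 9.00 in CTL and 8.10 to 9.11 in RCV. In the other panels the CPZ mice lie at the upper right.

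Likeness was measured as Pearson's r of log2-CPM over the 13 mice after centring on the group means, and the genes compared had a log2-CPM averaging 3 or more. The mice share depth and tissue composition, so r is a description. Trf was most like Gatm (r = 0.991), Otud7b (0.982) and Septin4 (0.979). Fth1 was most like Gm45062 (r = 0.958), Apod (0.933), a marker of mature oligodendrocytes, and Galnt6 (0.922). Unlike most markers on its list, Apod was not called in CPZ against CTL (log2 fold change -0.30, edgeR adjusted p = 0.331). In that contrast Gm45062 was at 0.08 (edgeR adjusted p = 0.912) and Galnt6 at -1.07 (edgeR adjusted p = 0.0042). Ftl1 was most like Rpl4 (r = 0.958) and Rplp0 (0.944), which encode ribosomal proteins, and Man2b1 (0.955), a lysosomal mannosidase. Tfrc was most like Sgip1 (r = 0.921), Rxfp1 (0.905) and Nr4a2 (0.895). Hmox1 was most like Mtfr1l (r = 0.935) and also like Anxa2 (0.884), and Slc11a1 like Fam104a (r = 0.929), Ilk (0.902) and Eef1akmt2 (0.897). For Slc40a1 they were Nfia (r = 0.892), Met (0.885) and Cox19 (0.875), and for Slc11a2 Sec23a (0.86), Slc4a1ap (0.847) and Ndufa5 (0.846). For Ireb2 they were Armc1 (r = 0.946), Rb1cc1 (0.938) and Zfp281 (0.918), and for Ncoa4 Phf23 (0.904), Mcfd2 (0.841) and Zfand3 (0.817). Among the members themselves, Trf and Fth1 (r = 0.815), Tfrc and Slc40a1 (0.756) and Ftl1 and Slc11a1 (0.725) were the pairs most alike.

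Beyond the 10 members, 60 further iron genes were listed by role, of which 48 could be tested. In CPZ against CTL, 6 of the 48 rose, 2 fell and 40 did not pass the test, beside 7.66% of all genes that rose, 2.5% that fell and 10.2% in either direction. In CPZ against RCV, 6 were higher, 1 was lower and 41 did not pass, beside 5.13%, 1.88% and 7.01% of all genes. An unadjusted p under 0.05 was reached by 16 of the 48 in each of these contrasts. In RCV against CTL, edgeR called 0 of the 48, with 3 at an unadjusted p under 0.05, and DESeq2 and limma-voom also called 0. Over all genes an unadjusted p under 0.05 was reached by 22.1% of genes for CPZ and 6.2% for RCV, both against CTL, and by 19.1% for CPZ against RCV. The median log2 fold change over the 48 genes was 0.04, -0.006 and 0.04 in these contrasts. The 12 genes that were not tested had at most 18 counts in any library, and among them were the hepcidin genes Hamp and Hamp2, whose peptide closes ferroportin.

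Among the partners of the transferrin cycle, listed together with ferric reductases, 2 of 7 rose in CPZ against CTL. Hfe, which binds the transferrin receptor, went from 5.26 ± 0.69 CPM in CTL to 11.5 ± 2.30 CPM in CPZ and 4.46 ± 1.15 CPM in RCV. Its log2 fold change was 1.12 ± 0.18 against CTL (edgeR adjusted p = 0.00039) and 1.35 ± 0.20 against RCV (edgeR adjusted p = 0.00059). Cybrd1, a ferric reductase, was at 2.88 ± 1.63, 7.32 ± 0.45 and 5.30 ± 2.18 CPM in CTL, CPZ and RCV, with 1.33 ± 0.32 in CPZ against CTL (edgeR adjusted p = 0.011). Tfr2, Steap2, Steap3, Steap4 and Exoc6 did not pass the test in any contrast.

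Of 4 tested genes for the uptake of other forms of iron, 2 rose and 1 fell in CPZ against CTL. Lcn2, which binds bacterial iron chelators and is made by reactive astrocytes and neutrophils, had 0, 2, 0, 1 and 0 counts in the CTL mice, 135, 150, 24 and 30 in the CPZ mice, and 14, 4, 9 and 2 in the RCV mice. It was called in CPZ against CTL (edgeR adjusted p = 0.0003) and in CPZ against RCV (edgeR adjusted p = 0.014), and no fold is given against so few counts. Its receptor Slc22a17 fell by 0.25 on the log2 scale in CPZ against CTL (SE 0.07, edgeR adjusted p = 0.03). Slc39a14, which carries iron not bound to transferrin, rose by 0.36 ± 0.10 on the log2 scale (edgeR adjusted p = 0.03), from 38.6 ± 4.40 CPM in CTL to 49.4 ± 7.05 CPM in CPZ. Its relative Slc39a8 was called in CPZ against RCV alone, at 0.67 ± 0.19 (edgeR adjusted p = 0.048).

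One of 3 tested ferroxidases and hepcidin-axis genes was called. Ceruloplasmin (Cp), the copper enzyme that oxidises exported iron, was at 17.1 ± 2.03 CPM in CTL, 27.8 ± 5.97 CPM in CPZ and 16.2 ± 1.57 CPM in RCV. The log2 fold change of Cp was 0.70 ± 0.13 in CPZ against CTL (edgeR adjusted p = 0.0018) and 0.78 ± 0.14 in CPZ against RCV (edgeR adjusted p = 0.0032). Its relative Heph was at 0.09 ± 0.19 in CPZ against CTL (edgeR adjusted p = 0.851).

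Among 5 regulators, Nfe2l2, the factor that induces Hmox1 and ferritin genes under oxidative stress, rose by 1.09 ± 0.13 on the log2 scale in CPZ against CTL (2.13-fold, edgeR adjusted p = 2.6e-05) and by 0.68 ± 0.14 in CPZ against RCV (edgeR adjusted p = 0.0061). Its mice were at 14.6 ± 1.69 CPM in CTL, 31.1 ± 5.40 CPM in CPZ and 19.3 ± 3.33 CPM in RCV. Bach1, the heme-sensing repressor of Hmox1, was called in CPZ against RCV alone, at 0.40 ± 0.11 (edgeR adjusted p = 0.043). Aco1, which encodes the other iron regulatory protein, was at 0.04 ± 0.09 in CPZ against CTL (edgeR adjusted p = 0.881), near Ireb2.

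In the uptake and breakdown of heme, 1 of 9 tested genes fell in CPZ against CTL, the lysosomal heme exporter Slc48a1, by 0.31 on the log2 scale (SE 0.07, edgeR adjusted p = 0.0039). In heme synthesis, 0 of 8 genes were called in CPZ against CTL (2 at an unadjusted p under 0.05), and Cpox fell by 0.35 in CPZ against RCV (SE 0.10, edgeR adjusted p = 0.04). Of 10 genes of mitochondrial iron and iron-sulfur clusters, edgeR called 0 in any contrast, with 1, 0 and 1 at an unadjusted p under 0.05 in the contrasts as ordered above. The 2 tested genes of iron chaperones were not called either.

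The calls with an adjusted p near the threshold were lost in several of the fits that left out 1 library. Slc39a8 lost its call in 11 of the 13 fits that left out 1 library, all but those without CTL replicate 4 or CTL replicate 5, with an adjusted p of up to 0.143. Bach1 lost it in 8 (up to 0.14, without CPZ replicate 1 or 2, CTL replicate 1, 2 or 3, or RCV replicate 1, 2 or 4). Cpox lost it in 7 (up to 0.119, without any CPZ mouse, CTL replicate 5, or RCV replicate 1 or 2). Slc22a17 lost it in 4 (up to 0.104, without CPZ replicate 1, 2 or 4, or CTL replicate 2), and Slc39a14 in 4 (up to 0.127, without CPZ replicate 1 or 2, or CTL replicate 2 or 4). The calls of Ftl1, Slc11a1 and Hmox1 and those of Hfe, Cybrd1, Lcn2, Cp, Nfe2l2 and Slc48a1 held in all 13 such fits. Other settings ended some of the latter: limma on unfiltered log2(TPM + 1) those of Hfe (adjusted p = 0.0921), Cybrd1 (0.0701) and Cp (0.0573) against CTL, limma on log2(TPM + 0.1) that of Hfe against CTL, the replicate block that of Cybrd1 (0.0715), all 3 fits on TPM that of Cp against RCV (0.208 to 0.307), and the choroid plexus covariate that of Nfe2l2 against RCV (0.1). Lcn2 against RCV was lost under 4 settings, the choroid plexus covariate (0.0969), limma on log2(TPM + 0.1) (0.0948), limma-voom (0.107) and a fit of only the 2 groups (0.0706). Slc39a14 was also lost in all 3 fits on TPM (0.25 to 0.365).

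**Figure D5:**
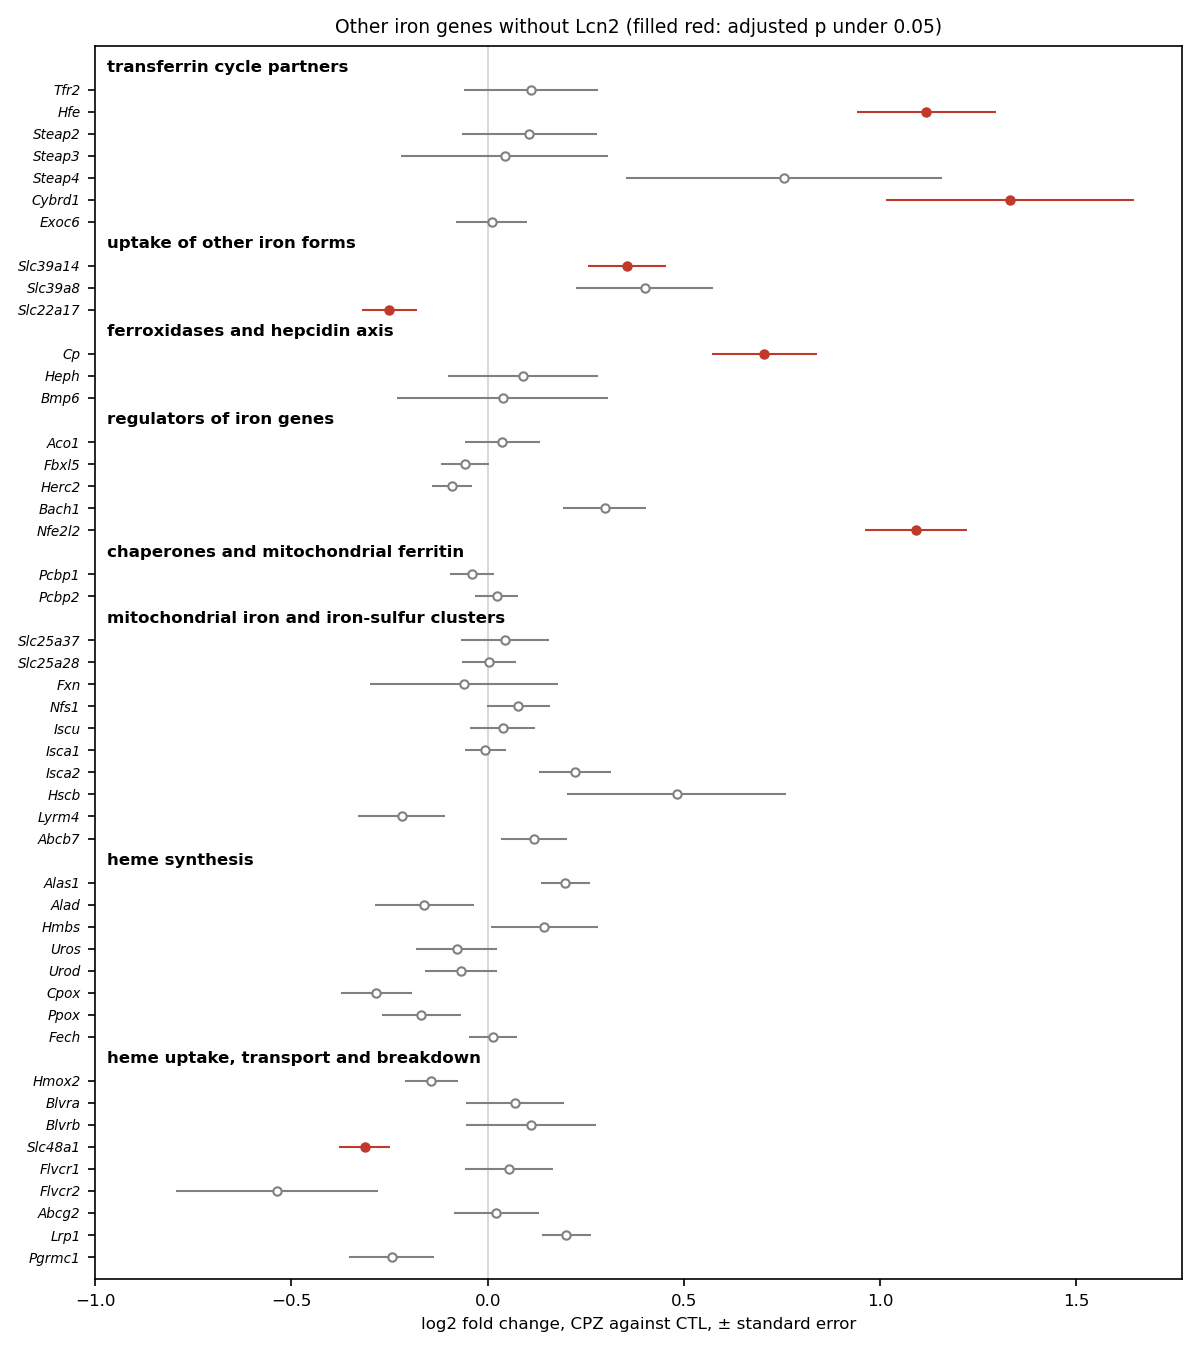
Log2 fold change in CPZ against CTL (x axis) with its standard error for 47 further iron genes, grouped by role, in red where the edgeR adjusted p was under 0.05. Lcn2 is left out because CTL held 0 to 2 counts per mouse, and most genes of mitochondrial iron and heme synthesis lie close to 0.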

How the data were processed

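Bulk RNA-seq was made from 13 brain hemispheres (Kapa mRNA HyperPrep, paired-end reads). Per the labels, the authors used STAR, RSEM and the mm10 build (versions not given in the sources used here) and deposited estimated counts and TPM values per gene. Whether the counting used strand is not given in the sources used here. The labels' protocol text gives fewer mice per group than the 13 libraries, all of which were used, and "Veh" opens the title of each RCV library. Estimated counts were rounded. The 92 spike-in identifiers had 0 counts.

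All 13 libraries entered 1 fit of edgeR 4.0.16 (R 4.3.3) with a mean per group and no covariate. Low genes were dropped by filterByExpr, library sizes were adjusted by TMM, and contrasts used the quasi-likelihood F test, robust to outlying genes. Adjusted p-values follow Benjamini and Hochberg over all genes tested. Log2-CPM used a prior count of 2. CPM are given as mean ± SD and log2 fold changes as ± SE. Nothing in the labels says more than that each library is a separate mouse. The members, the other lists, the rule for named genes and the tests were chosen with earlier results of these data known. Named were the 10 members, the genes of the wider list called in any contrast, and the 3 genes most like each member, of which 1 is not reported here. Other genes named in the text (Hmox2, Blvra, Blvrb, Heph, Aco1, Hamp, Hamp2, the 5 uncalled transferrin partners) are uncalled members of the same lists. Marker scores are means of log2-CPM.

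Simulated counts held 67 genes changed 1.5-fold, 67 changed 2-fold and 66 changed 4-fold per contrast, and equal group means for the others. In CPZ against CTL (14828 genes) the test recovered 59.7% of 1.5-fold and 93.9% of 4-fold changes, with 5.33% of calls false. In RCV against CTL these were 58.2%, 93.9% and 6.1%, and in CPZ against RCV 62.7%, 95.5% and 4.14%. Fewer genes were changed than were called between CPZ and CTL in the data. No library looked like a second copy of another: the 22 same-group pairs had chi-square values per gene of 4.23 to 16.3, above counting error. Of the identifiers, 54349 (98.1%) matched GENCODE release M21 on GRCm38, which gave positions and UTRs. Alternatives were DESeq2 1.42.0, its size factors, limma 3.58.1 (voom, and log2 of TPM + 1 or TPM + 0.1, filtered on low TPM or, for the first, unfiltered), other count filters, only 2 groups, the replicate number as a block, a choroid plexus covariate, ferritin copies summed, and each library left out. The endothelial, precursor, neuron and red blood cell lists were also scored: 0 of 9, 1 of 6 (higher), 0 of 6 and 0 of 5 genes were called in CPZ against CTL. Of 10 astrocyte markers, 5 were higher.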

Additional observations from a re-analysis of the deposited data

Results flagged for a closer look

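Each member was examined for a library far from the others of its group, in 30 groups of 4 or 5 mice, and 1 was found. Chance alone gives about 1 in 20 groups. Trf in CPZ replicate 4 was at 599 CPM, while the other 3 CPZ mice were at 454 to 475 CPM, and the gap was 0.856 of the whole range, more than Dixon's criterion for 4 mice allows. The same mouse had the highest score of mature oligodendrocytes in CPZ, 5.54 against 4.89 to 4.92. Without it the log2 fold change of Trf in CPZ against CTL was 0.27 (edgeR adjusted p = 0.618).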

How the results depend on the processing

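The number of members called kept within 2 to 3 in CPZ against CTL and in CPZ against RCV under each alternative. In RCV against CTL it went from 1 to 0 with limma-voom, with at least 10 counts in every library, where Slc11a1 was not tested, and with limma on unfiltered log2(TPM + 1). Leaving out 1 library kept it at 3, 1 and 3. Calls of single genes were kept in 209 of the other comparisons with alternatives and lost in 49, with no called direction reversed. Leaving out 1 library kept 252 and lost 34. Some members that were not called changed sign. With limma on log2(TPM + 1), filtered or not, and on log2(TPM + 0.1), Ncoa4 was at -0.051 to -0.052 in CPZ against CTL and -0.11 in CPZ against RCV, Slc40a1 at -0.13 or -0.15 in CPZ against RCV, and Trf at 0.0060 and Ireb2 at 0.040 to 0.042 in RCV against CTL. Fth1 in CPZ against RCV was at 0.015 without a count filter and 0.00033 with at least 10 counts. With the choroid plexus covariate, Trf was at 0.27 and Slc40a1 at -0.067 in RCV against CTL. On TPM, Slc40a1 was at 0.56 to 0.62 in RCV against CTL and 0.43 to 0.47 in CPZ against CTL, beside 0.05 and 0.21 on counts, and was not called. Leaving out 1 library, log2 fold changes ranged from -0.26 to 0.11 for Trf, -0.084 to 0.019 for Ireb2 and -0.061 to 0.17 for Slc40a1 in RCV against CTL, from -0.066 to 0.064 for Tfrc, -0.011 to 0.072 for Slc11a2 and -0.013 to 0.10 for Ireb2 in CPZ against CTL, and from -0.055 to 0.057 for Fth1 and -0.011 to 0.092 for Ncoa4 in CPZ against RCV. The cause of these moves was not tested.

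Over 12 pairs of mice with the same replicate number, deviations from the group means had a mean r of -0.05. Of these pairs, 3 were above 0.1. The 44 pairs with different numbers had a mean r of 0.0145, with 20 above 0.1. These values cannot show whether the numbers carry a batch, and the labels do not name one. With the replicate number as a block, the members called stayed at 3, 1 and 3, Ireb2 in RCV against CTL was at 0.027, and Cybrd1, Slc22a17, Bach1, Cpox and Slc39a8 lost their calls. Over all genes the block called 1172, 42 and 755 in place of 1522, 56 and 1050. Counts over all genes moved by more than 1.5 times with limma on unfiltered log2(TPM + 1) (993, 16 and 477), in CPZ against RCV with filtered TPM (584 and 503) and the choroid plexus covariate (576), and in RCV against CTL with DESeq2 (124), limma-voom (16), at least 10 counts (20) and the choroid plexus covariate (35). Leaving out 1 library also moved the counts over all genes. They ran from 1078 to 1680 in CPZ against CTL, 21 to 87 in RCV against CTL and 632 to 1170 in CPZ against RCV. Low counts limit Slc11a1 and Hmox1 in CTL, at 6 to 29 counts per mouse.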
